A study of Rattus norvegicus with 24 samples.

Results

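The 10 genes described here encode the muscle nicotinic acetylcholine receptor, the machinery that clusters it under the nerve terminal and the enzyme that removes its transmitter. They were chosen by symbol, as the table rows named Chrna1, Chrnb1, Chrnd, Chrne, Chrng, Musk, Dok7, Rapsn, Lrp4 and Ache. Each symbol had 1 row, so they made up 10 of 14243 rows after 28 exact duplicates were dropped. All 10 passed the filter on low values, which required a value above 0 in at least 3 of the limbs fitted.

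RNA-seq was performed on tibialis anterior (TA) muscle, an ankle dorsiflexor, of 12 male rats of the inbred Fischer 344 strain, aged 23 ± 1 months, and both limbs of each animal gave 24 samples. In 9 animals a pump delivered tetrodotoxin (TTX), which closes sodium channels of the axon and so silences nerve impulses, to the left common peroneal nerve, while the right limb received no TTX. The left TA was taken after 6 to 7 days of TTX (atrophy, n = 3), after the same silencing followed by 9 days without TTX (recovery, n = 3), or after a further 5 to 6 days of TTX (repeated atrophy, n = 3). Control refers to the 9 right limbs of these TTX animals, and 3 sham animals, 1 per time point, had the same surgery with no TTX (sham left and sham right, n = 3 each). The control limbs therefore came from animals in which the nerve of the other side had been silenced, all comparisons with control shared these 9 limbs, only males were studied, and the whole muscle was sampled, of which the synaptic zone is a small part. Animals are numbered 1 to 3 within each group, and a control limb is named by the animal it belongs to.

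At the neuromuscular junction, acetylcholine released by the nerve opens a receptor built from alpha, beta and delta subunits together with either the gamma subunit of fetal muscle or the epsilon subunit of adult muscle. Nerve-derived agrin binds LRP4, which activates the kinase MuSK with the help of DOK7, and rapsyn then holds the receptors in dense clusters, while acetylcholinesterase ends transmission by splitting acetylcholine. In innervated adult muscle, electrical activity is known to keep receptor genes silent outside the synapse, and loss of nerve activity is known to restore their expression along the fiber.

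Values are counts per 1000000 reads (CPM), and the inferred depth was 18.9 to 30.9 M reads per limb, so that 1 read was worth 0.0324 to 0.053 CPM. The least abundant member value was that of Musk in sham right animal 2, at about 4 reads. A gene was called in limma, fitted on log2(CPM + 1), where its fold was 1.2 or more and its p, adjusted over all rows by Benjamini-Hochberg, was 0.05 or less, and every log2 fold change below is on that scale, which understates changes of low genes such as Musk. The left limb of atrophy animal 2 stood apart from the other silenced limbs. It lay outside the range of the 9 control limbs in 12.4% of rows, compared with 49.0% and 42.9% in atrophy animals 1 and 3, and in 1 of 10 members (Dok7), compared with 10 and 7. Whether the TTX block held in this animal and whether its label is right cannot be told from these values, and the limb was kept under its label in every atrophy mean unless stated. The 10 most abundant rows held 13.0% to 25.6% of the total in atrophy limbs, 15.6% to 19.2% in repeated atrophy limbs and 24.3% to 32.8% in control limbs, and the median log2 fold change of all rows was 0.22 after atrophy and 0.20 after repeated atrophy. Rescaling each limb by its trimmed mean log ratio changed the split of all calls from 2844 higher and 327 lower to 641 higher and 720 lower after atrophy, and from 3936 and 876 to 1863 and 1684 after repeated atrophy.

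The promoters of 4 members are shown because 2 of these genes had nearly parallel levels across limbs (Chrna1 and Chrnd) and the other 2 form the fetal and adult pair (Chrng and Chrne). Each runs from 250 bases before to 50 bases after the start of the gene in RefSeq (build GRCr8), 5′ to 3′ on the gene's strand. They lie at chr3:78877304-78877603 (minus strand), chr9:95310066-95310365 (plus), chr9:95325734-95326033 (plus) and chr10:55834105-55834404 (minus), in the order Chrna1, Chrnd, Chrng and Chrne. Capitals mark CANNTG, the E-box read by myogenic basic helix-loop-helix factors such as myogenin, and CCGGAA on either strand, the core of the N-box of synapse-specific genes.
Chrna1: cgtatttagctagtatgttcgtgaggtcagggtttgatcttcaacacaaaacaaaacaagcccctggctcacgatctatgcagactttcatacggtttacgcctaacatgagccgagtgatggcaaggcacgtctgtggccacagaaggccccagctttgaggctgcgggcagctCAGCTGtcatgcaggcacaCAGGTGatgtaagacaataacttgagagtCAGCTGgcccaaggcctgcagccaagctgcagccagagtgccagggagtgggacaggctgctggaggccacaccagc
Chrnd: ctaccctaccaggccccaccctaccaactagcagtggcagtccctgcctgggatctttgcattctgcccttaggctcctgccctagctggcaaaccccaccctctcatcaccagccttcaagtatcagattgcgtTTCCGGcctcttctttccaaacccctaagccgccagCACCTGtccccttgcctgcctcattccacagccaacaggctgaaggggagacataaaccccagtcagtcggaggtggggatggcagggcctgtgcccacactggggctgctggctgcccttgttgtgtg
Chrng: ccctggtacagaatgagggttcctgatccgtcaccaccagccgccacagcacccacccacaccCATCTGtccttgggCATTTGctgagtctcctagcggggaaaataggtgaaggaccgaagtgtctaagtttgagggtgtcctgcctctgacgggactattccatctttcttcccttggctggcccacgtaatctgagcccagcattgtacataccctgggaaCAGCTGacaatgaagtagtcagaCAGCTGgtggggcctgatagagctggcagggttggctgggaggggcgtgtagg
Chrne: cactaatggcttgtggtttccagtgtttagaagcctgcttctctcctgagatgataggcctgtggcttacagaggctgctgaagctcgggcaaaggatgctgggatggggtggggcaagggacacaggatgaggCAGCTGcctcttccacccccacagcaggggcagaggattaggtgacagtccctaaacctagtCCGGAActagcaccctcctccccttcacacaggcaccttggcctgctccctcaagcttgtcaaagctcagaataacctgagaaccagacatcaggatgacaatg

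Counted from 1 at the first base of the gene, with negative positions before it, Chrna1 held 3 E-boxes, at -75 to -70, -56 to -51 and -27 to -22. Chrng held 4, of which those at -26 to -21 and -3 to 3 read CAGCTG. Chrnd held 1 E-box, at -79 to -74, and a CCGGAA on the opposite strand at -115 to -110. Chrne held 1 E-box, at -116 to -111, and a CCGGAA at -54 to -49. Of the other members with a promoter entry, Chrnb1 and Musk held 3 E-boxes each and Dok7 and Ache 1 each, and none of these held CCGGAA. The entries matched 8 of the 10 members, all but Rapsn and Lrp4. All 8 matched members held at least 1 E-box, as did 72.1% of 33469 rat promoters of this length, and 4 of the 8 held 3 or more, compared with 16.6% of all. CAGCTG was found in 5 of 8, compared with 15.1% of all promoters, CAGGTG on either strand in 4 of 8, compared with 18.8%, and CCGGAA in 2 of 8, compared with 15%. CAGCTG and CAGGTG are both forms of CANNTG, so these counts overlap. The matches describe letters only.

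Per kilobase of gene model, the 3 subunits common to fetal and adult receptors were the most abundant members in control limbs. Chrnd averaged 34.6 ± 22.5 CPM per kb (SD, n = 9), Chrnb1 33.8 ± 6.64, Chrna1 26.8 ± 14 and Ache 25.6 ± 12.0, and these neighbours did not differ beyond their spread. Rapsn followed at 16.4 ± 3.15, then Dok7 at 7.89 ± 1.65, Chrne at 6.20 ± 1.03, Chrng at 3.21 ± 4.46, Lrp4 at 2.11 ± 0.865 and Musk at 0.369 ± 0.114. After repeated atrophy, Chrna1 (580 ± 240 CPM per kb, SD, n = 3) and Chrnd (579 ± 204) were at about the same level, far above Chrnb1 (95.3 ± 10.2). Ache, rank 4 of the 10 in control limbs, had become the lowest at 1.25 ± 0.706 CPM per kb, and Chrng stood above Chrne (54.3 ± 37.9 and 22.7 ± 5.40 CPM per kb), although in animal 1 the 2 genes were at about the same level.

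**Figure D1:**
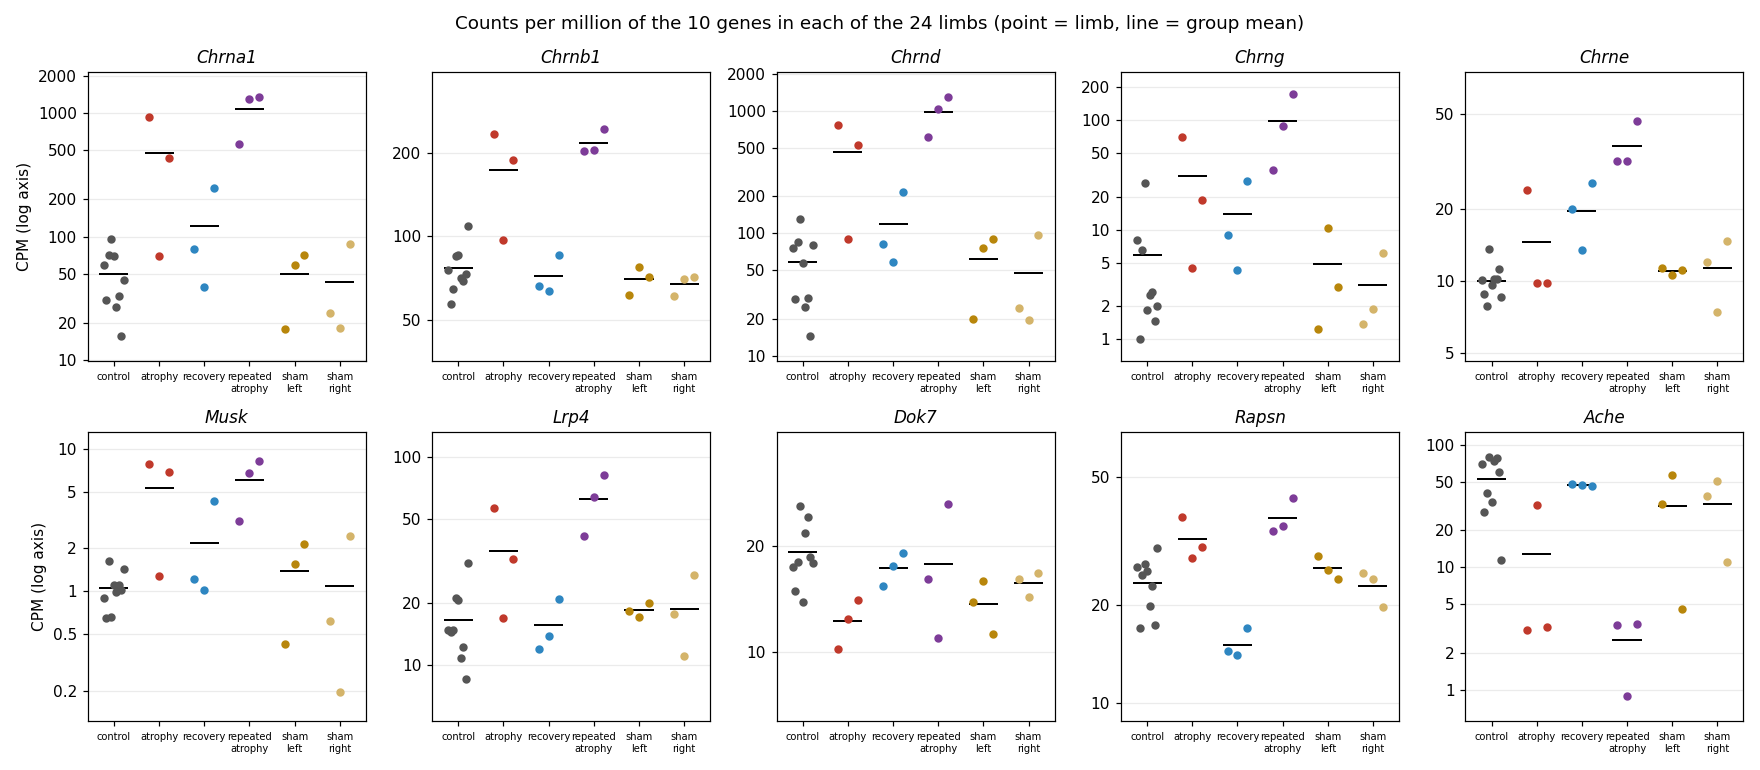
CPM of the 10 genes on log axes in each of the 24 limbs, by group, with a point per limb and a line at the group mean. All 3 repeated atrophy limbs lie above every control limb for 8 genes and below every control limb for Ache, whereas 1 atrophy limb lies among the control limbs for most genes.

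Repeated atrophy was set against control to ask how the second period of silencing left these genes. Of the 10 members, 8 rose and 1 fell in limma, compared with 28.1% of all rows rising and 6.24% falling, and Dok7 passed in neither direction. The same 8 lay above all 9 control limbs in all 3 limbs, as did 16.3% of all rows, and Ache lay below all of them, as did 3.81%. With the animal as a block the same 8 rose and the same 1 fell, where 27.1% of all rows were called in either direction.

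Chrna1, which encodes the ligand-binding alpha subunit, ranged from 15.7 to 95.2 CPM in control limbs (median 44.7) and stood at 561, 1307 and 1349 CPM in repeated atrophy animals 1, 2 and 3. The lowest of these limbs was thus far above the highest control limb. The log2 fold change was 4.49 ± 0.649 (SE), a 22.4-fold rise (adjusted p = 1.4e-04). Within animals, the left limb exceeded the right by 3.81 to 4.17 on the log2 scale.

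Chrnd, the delta subunit, ranged from 14.4 to 131 CPM in control limbs (median 56.9) and from 615 to 1304 CPM after repeated atrophy, with 1029 CPM in animal 2. Its log2 fold change was 4.27 ± 0.633 (adjusted p = 1.6e-04), and the groups did not overlap. Chrnb1, the beta subunit, varied less among control limbs, from 57.0 to 109 CPM (median 73.4), and stood at 203, 204 and 244 CPM. Its rise was smaller, at 1.5 ± 0.212 (adjusted p = 1.2e-04), although it too was present in every animal.

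Chrng, the gamma subunit of the fetal receptor, was the most variable member in control limbs. It lay between 1.01 and 8.09 CPM in 8 of them (median of all 9, 2.54 CPM) and at 26.7 CPM in the right limb of repeated atrophy animal 3. Repeated atrophy limbs stood at 35.5, 89.6 and 173 CPM, and the log2 fold change was 4.15 ± 0.773 (adjusted p = 6.9e-04). Without that control limb it was 4.47. Chrne, the epsilon subunit of the adult receptor, lay between 7.90 and 13.6 CPM in control limbs (median 10.1) and at 31.6, 31.6 and 46.7 CPM after repeated atrophy, a rise of 1.76 ± 0.241 (adjusted p = 9.3e-05). The fetal and adult subunits therefore both rose, each without overlap with control. The Chrne row overlaps LOC687707 on the opposite strand, and the sources used here do not say whether counting used the strand.

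Musk, the receptor tyrosine kinase of the clustering pathway, ranged from 0.644 to 1.63 CPM in control limbs (median 1.02) and stood at 3.10, 6.74 and 8.21 CPM, a log2 fold change of 1.71 ± 0.357 (adjusted p = 0.0016). Lrp4, the agrin receptor, ranged from 8.62 to 30.8 CPM in control limbs (median 14.7) and stood at 41.7, 63.8 and 81.9 CPM (1.90 ± 0.340, adjusted p = 5.5e-04). Both were low in every control limb and high in every repeated atrophy limb. Rapsn, the clustering scaffold, moved within a narrow range, from 17 to 30.1 CPM in control limbs (median 24.8) to 33.9, 35.1 and 42.9 CPM. Its change of 0.66 ± 0.168 (adjusted p = 0.0056) no longer passed after rescaling, at 0.29 (adjusted p = 0.11). Dok7, the cytoplasmic activator of MuSK, ranged from 13.9 to 25.9 CPM in control limbs (median 18) and stood at 16.1, 11 and 26.2 CPM, both ends beyond the control range. Its difference was -0.16 on the log2 scale (95% interval -0.61 to 0.29, adjusted p = 0.62).

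Ache, which encodes acetylcholinesterase, moved opposite to the receptor genes. Control limbs ranged from 11.5 to 79.1 CPM (median 60.3), with 8 of 9 at 28.4 CPM or above, and repeated atrophy limbs stood at 3.39, 0.887 and 3.44 CPM. The fall of 3.82 ± 0.578 on the log2 scale (adjusted p = 1.8e-04) left no overlap, and in each animal the silenced limb held 0.0221 to 0.119 times the level of the other limb.

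**Figure D2:**
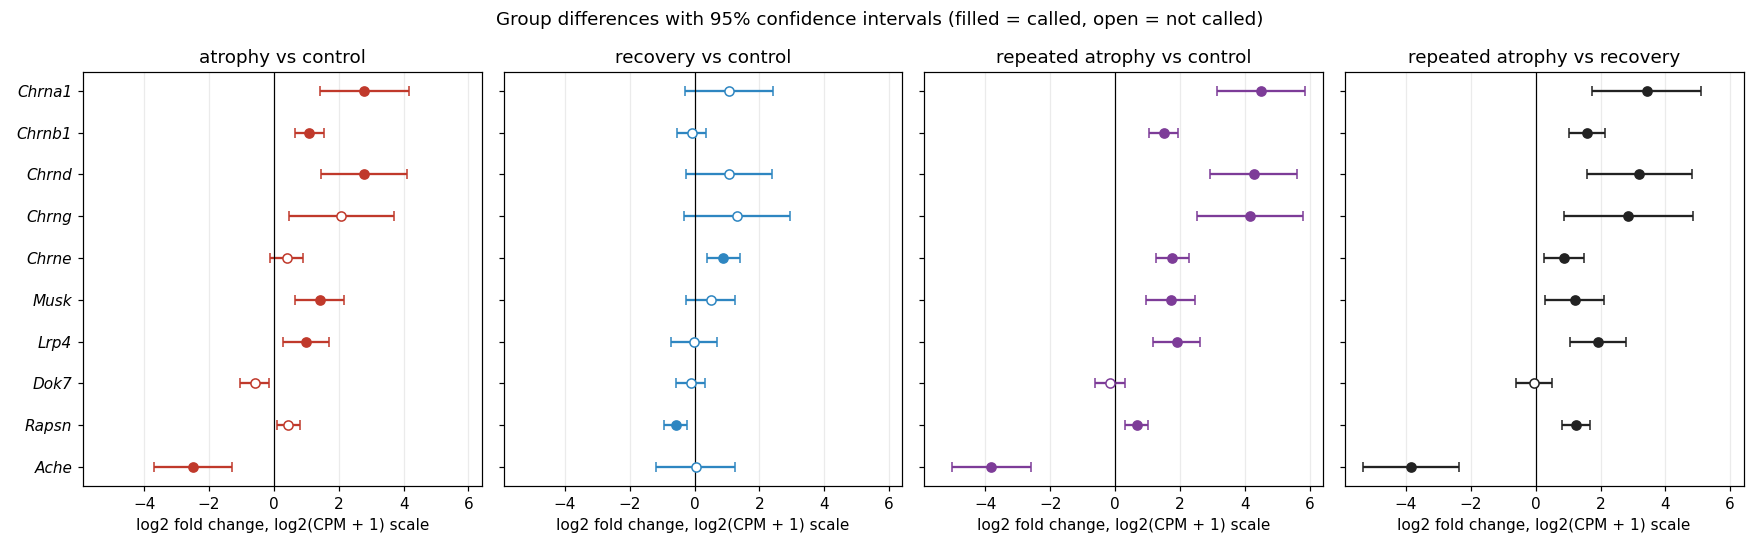
Log2 fold change of the 10 genes on the log2(CPM + 1) scale in 4 comparisons, with 95% confidence intervals as bars and filled points for called genes. Chrna1, Chrnd and Chrng have the largest rises after repeated atrophy (4.49, 4.27 and 4.15), Ache falls by 3.82, and after recovery only Chrne (0.88) and Rapsn (-0.58) are called.

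The first atrophy was compared with control to see the response to a single period of silencing. Chrna1, Chrnd, Chrnb1, Musk and Lrp4 rose and Ache fell, which made 5 of 10 members higher, compared with 20.3% of all rows, and 1 lower, compared with 2.33%. After rescaling, 4 members rose and 2 fell. Leaving out the left limb of atrophy animal 2 gave 6 higher and 1 lower, where 31.5% of all rows were called in either direction, and leaving out that of animal 1 or animal 3 gave 0 members, where 4 of 14015 and 0 of 13994 rows were called in limma (3184 and 3801 at an unadjusted p below 0.05). With the animal as a block, 0 members and 0% of rows passed in limma, although 2678 rows had an unadjusted p below 0.05, and the adjusted p of the 6 members above lay between 0.15 and 0.41.

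Chrna1 stood at 938, 69.9 and 431 CPM in the silenced limbs of atrophy animals 1, 2 and 3. Animals 1 and 3 were thus well above the control range and animal 2 was within it, at the level of its own right limb (69.7 CPM). The log2 fold change was 2.78 ± 0.649 (adjusted p = 0.0096), and 3.84 without animal 2. Chrnd showed the same order of limbs, with 768, 90.4 and 529 CPM and a log2 fold change of 2.78 ± 0.633 (adjusted p = 0.0092). Chrnb1, at 233, 96.8 and 189 CPM, rose by 1.09 ± 0.212 (adjusted p = 0.0064). For all 3 subunits the limb of animal 2 was inside the control range.

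Chrng stood at 70.6, 4.46 and 18.6 CPM, and only the first of these limbs lay above the control range. Its log2 difference of 2.07 ± 0.773 missed the threshold (adjusted p = 0.060). It passed without the limb of atrophy animal 2 (3.00, adjusted p = 0.012) and without the highest control limb (2.40, adjusted p = 0.023). Chrne stood at 24, 9.80 and 9.86 CPM. Its difference of 0.39 (95% interval -0.11 to 0.90, adjusted p = 0.25) rested on animal 1, and without that animal it was -0.01.

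Musk stood at 7.85, 1.27 and 6.90 CPM (1.41 ± 0.357, adjusted p = 0.012) and Lrp4 at 56.6, 16.8 and 32.4 CPM (0.98 ± 0.340, adjusted p = 0.045). The Lrp4 value of animal 3 was barely above its own right limb, which at 30.8 CPM was the highest control limb, and after rescaling the adjusted p of Lrp4 was 0.15. This call held in 4 of 10 other settings and in 4 of 12 fits with a limb left out. Rapsn stood at 37.4, 28.1 and 30.4 CPM and missed the threshold (0.44 ± 0.168, adjusted p = 0.064). Dok7, at 10.2, 12.4 and 14.1 CPM, had 2 limbs below the control range and also missed it (-0.59 ± 0.216, adjusted p = 0.054), but passed after rescaling (-0.94, adjusted p = 0.021). Ache stood at 3.09, 32.0 and 3.25 CPM, so that animals 1 and 3 lay below every control limb and animal 2 among them. It fell by 2.49 ± 0.578 (adjusted p = 0.0094), and by 3.49 without animal 2.

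Beside these differences, the summed level of 6 muscle fiber markers was 65129 to 119883 CPM in atrophy limbs, 93285 to 113455 CPM in repeated atrophy limbs and 110929 to 179395 CPM in control limbs, and 0 of the 6 passed after atrophy and 1 (Mb, the oxygen store of the fiber) rose after repeated atrophy. Summed Schwann cell markers (7 genes, all detected) overlapped control in both groups, at 28.4 to 43.6, 35.4 to 49.3 and 22.9 to 64.7 CPM in atrophy, repeated atrophy and control limbs. The part of either in the members' values was not tested. In bulk muscle, a change in the number of cells or nuclei of a type and a change in RNA per cell cannot be told apart.

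Recovery was compared with control to see what remained 9 days after silencing ended. Chrne rose and Rapsn fell, which made 1 of 10 members higher, compared with 4.40% of all rows, and 1 lower, compared with 3.33%. Chrne stood at 20.0, 13.5 and 25.6 CPM in recovery animals 1, 2 and 3, and 2 of these limbs lay above the highest control limb (13.6 CPM). Its rise was 0.88 ± 0.241 (adjusted p = 0.034), and without animal 3 it was 0.68 (adjusted p = 0.17). Rapsn stood at 14.4, 14 and 17 CPM, with 2 of these limbs below the lowest control limb and the other at its level, and fell by 0.58 ± 0.168 (adjusted p = 0.042). Both calls were lost with the animal as a block, where 0 members and 0.0641% of rows were called (adjusted p = 0.17 for Chrne and 0.30 for Rapsn). Both were also lost without the left limb of recovery animal 1 or 3, or without the right limb of atrophy animal 1 or repeated atrophy animal 2. Only 1 of the 2 remained without the left limb of recovery animal 2 or without the right limb of recovery animal 2, atrophy animal 2 or 3 or repeated atrophy animal 3.

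The other receptor genes were spread widely after recovery, with animal 3 highest. Chrna1 stood at 79.3, 39.3 and 249 CPM, Chrnd at 81.8, 57.9 and 216 CPM and Chrng at 9.01, 4.30 and 28.1 CPM. Only animal 3 lay above the control range for these genes. Their log2 differences from control were 1.07, 1.07 and 1.31, with 95% intervals that included 0, and none passed. Within each animal, however, the left limb was the higher for all 3 genes in all 3 animals, by 0.25 to 3.90 for Chrna1, 0.94 to 3.82 for Chrnd and 0.52 to 3.56 for Chrng on the log2 scale. In the blocked fit these differences had adjusted p of 0.23, 0.13 and 0.16. Musk stood at 1.21, 1.02 and 4.33 CPM and Lrp4 at 12.0, 13.8 and 20.9 CPM, with animal 3 again the highest for both. Chrnb1 (66.6, 63.5 and 86.1 CPM) and Dok7 (15.4, 17.5 and 19.1 CPM) lay inside the control range in every limb. Ache was the least variable, at 47.9, 46.8 and 46.1 CPM, all inside the control range, although each of these limbs was lower than the right limb of its animal (73.4, 78.1 and 60.3 CPM).

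Recovery limbs differed from control also in connective tissue markers. The summed level of 5 fibroblast markers was 1022 to 1918 CPM in recovery and 194 to 528 CPM in control limbs, and 4 of the 5 rose, led by Col3a1 (3.45 on the log2 scale) and Col1a1 (3.07), which encode fibrillar collagens. The right limbs of the recovery animals held more of both genes than any other control limb. In recovery animals 1, 2 and 3, Col1a1 was 324, 205 and 375 CPM (left) and 77.9, 119 and 69.4 CPM (right). Col3a1 was 714, 433 and 939 CPM (left) and 167, 145 and 92.6 CPM (right). The left excess within animals was therefore smaller than these log2 values. Of 5 macrophage markers 3 rose, with summed levels of 72.1 to 153 CPM compared with 27.5 to 92.7 CPM. Of 5 endothelial, 4 satellite cell and 4 adipocyte markers, Vcam1 rose in all 3 treated groups and Tie1 fell after repeated atrophy. None of these fibroblast, macrophage, endothelial and satellite cell calls passed with the animal as a block. The part of these markers in the Chrne and Rapsn values was not tested.

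Recovery limbs were also set directly against atrophy limbs, which came from different animals. Ache rose by 2.53 ± 0.708 (adjusted p = 0.023), while Rapsn fell by 1.02 ± 0.206 (adjusted p = 0.0076) and Chrnb1 by 1.17 ± 0.260 (adjusted p = 0.0096). This was 1 of 10 members higher, compared with 3.34% of all rows, and 2 lower, compared with 14.5%. The differences of Chrna1 (-1.72 ± 0.795) and Chrnd (-1.71 ± 0.776) missed the threshold (adjusted p = 0.14 and 0.13), as did that of Chrng (-0.77 ± 0.947, adjusted p = 0.60). Without the limb of atrophy animal 2, 1 member rose and 6 fell, Chrna1 by 2.77 and Chrnd by 2.65 among them, where 513 of 14011 rows rose and 2978 fell. Without that of atrophy animal 3 Rapsn alone was called, and the adjusted p of Ache was 0.12 and that of Chrnb1 0.059. Without that of atrophy animal 1, Ache lost its call (adjusted p = 0.093) and Chrne gained one (0.89, adjusted p = 0.042). Ache also lost its call without the left limb of recovery animal 1 or 2, so that it was called in 2 of 6 fits with a limb left out. With the animal as a block, 0 members and 0.0143% of rows were called.

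Repeated atrophy against recovery asked what the second period of silencing added. Again 8 members rose, compared with 21% of all rows, and 1 fell, compared with 6.29%. Chrna1 rose by 3.42 ± 0.795 (adjusted p = 0.0057), Chrnd by 3.20 ± 0.776 (adjusted p = 0.0068) and Lrp4 by 1.92 ± 0.416 (adjusted p = 0.0040). The 3 repeated atrophy limbs lay above the 3 recovery limbs for all 8 genes except Musk, of which recovery animal 3 (4.33 CPM) exceeded repeated atrophy animal 1 (3.10 CPM). Rapsn turned from its lowest group to its highest, with a rise of 1.24 ± 0.206 (adjusted p = 0.0011), and Ache fell by 3.85 ± 0.708 (adjusted p = 0.0018). The rises of Chrng (2.85), Chrne (0.88) and Musk (1.2) were closest to the threshold (adjusted p = 0.033, 0.034 and 0.048) and were lost after rescaling (adjusted p = 0.056, 0.17 and 0.091). Of 9 other settings, rescaling among them, the calls of Chrng and Chrne held in 7 each and that of Musk in 3. Each of these 3 was also lost without the left limb of repeated atrophy animal 2 or 3 or of recovery animal 1 or 2, which left 5 members rising. With the animal as a block, which compares within-animal differences of 3 animals with those of 3 others, 0 members and 0.0855% of rows passed, with adjusted p of 0.077 for Chrnb1, 0.10 for Rapsn, 0.11 for Ache and 0.19 to 0.86 for the rest.

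Repeated atrophy against the first atrophy asked whether the second response was larger. No member was called in limma, where 0.0143% of rows were higher and 0.0214% lower and 884 rows had an unadjusted p below 0.05. Chrne came nearest, with 31.6, 31.6 and 46.7 CPM after repeated atrophy and 24, 9.80 and 9.86 CPM after the first atrophy. These limbs did not overlap, and the difference was 1.37 on the log2 scale (95% interval 0.75 to 1.99, adjusted p = 0.12). It was called without the limb of atrophy animal 1 (1.77, adjusted p = 0.0073). Chrna1 differed by 1.70 (95% interval 0.04 to 3.37), Chrng by 2.08 (0.09 to 4.07) and Lrp4 by 0.92 (0.04 to 1.79), with adjusted p of 0.75 to 0.77, and without the limb of atrophy animal 2 these were 0.65, 1.15 and 0.48. Ache differed by -1.32 (-2.81 to 0.16). The block likewise called 0 members and 0% of rows (790 at an unadjusted p below 0.05).

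**Figure D3:**
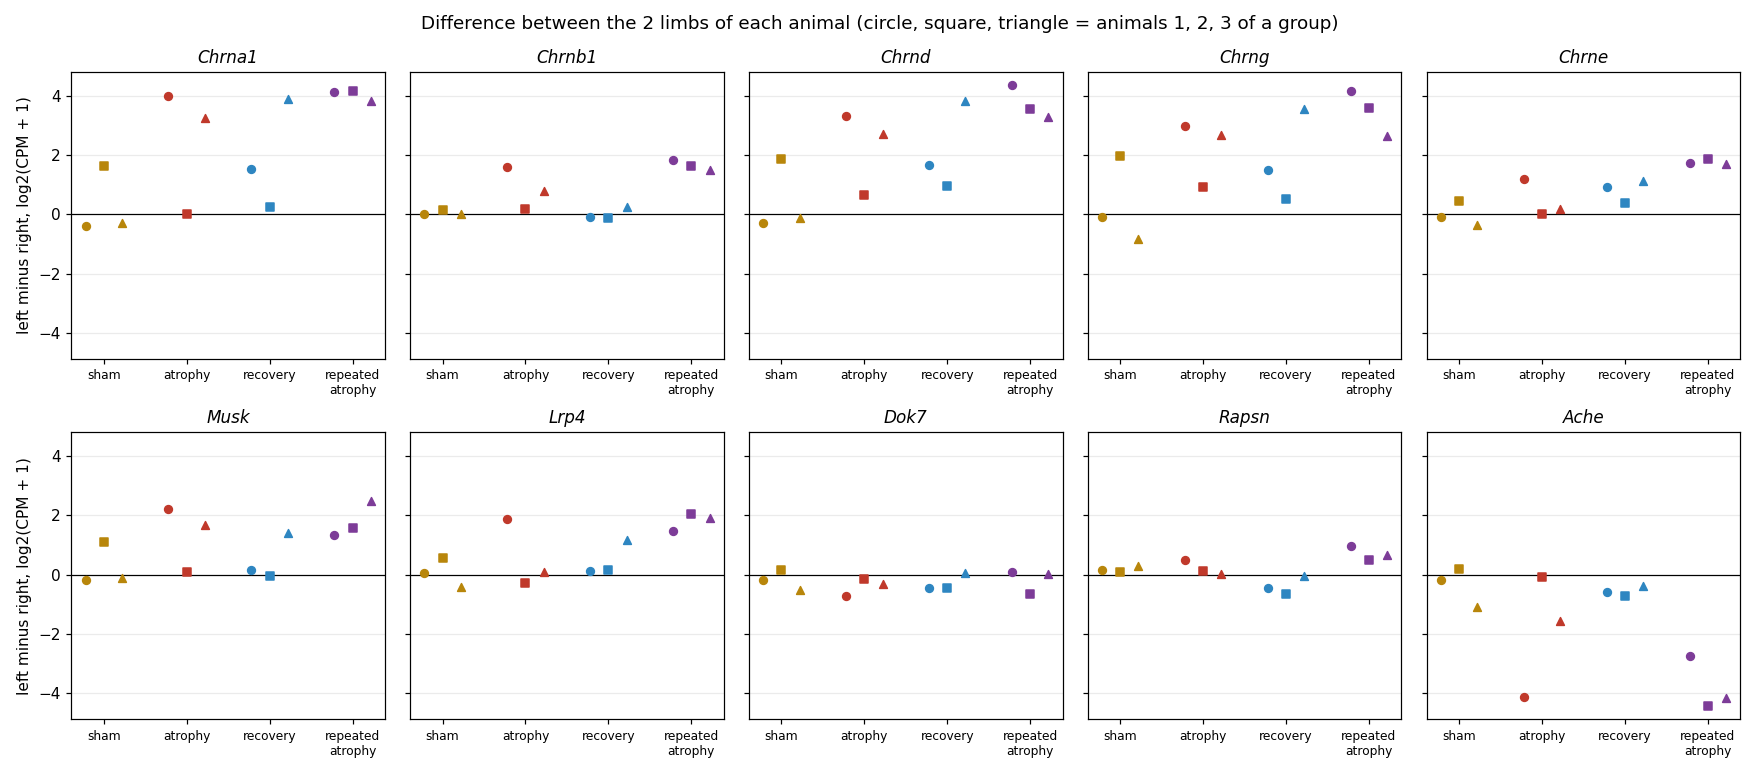
Left minus right limb on the log2(CPM + 1) scale for the 10 genes, with a point per animal (circle, square and triangle for animals 1, 2 and 3 of each group). Chrna1 lies between 3.81 and 4.17 in the 3 repeated atrophy animals but between 0.00 and 3.98 in the atrophy animals, and Ache lies below 0 in all 9 TTX animals.

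Limbs were also compared within animals. The left minus right difference of Chrna1 was 4.04 ± 0.20 (SD, n = 3) on the log2 scale after repeated atrophy, 2.41 ± 2.12 after atrophy, 1.89 ± 1.85 after recovery and 0.31 ± 1.15 in sham animals. For Chrne it was 1.77 ± 0.09, 0.46 ± 0.63, 0.80 ± 0.39 and 0.00 ± 0.42 in the same order. Ache was lower on the left in all 9 TTX animals, with differences of -3.78 ± 0.91 after repeated atrophy, -1.92 ± 2.04 after atrophy and -0.57 ± 0.18 after recovery. It was also lower on the left in 2 of 3 sham animals (-0.37 ± 0.66), a spread that includes the recovery value. Rapsn was higher on the left in all 3 sham animals (0.18 ± 0.11), all 3 atrophy animals (0.21 ± 0.25) and all 3 repeated atrophy animals (0.70 ± 0.24), and lower on the left in all 3 recovery animals (-0.38 ± 0.32). The left excess after atrophy was thus about that of sham animals.

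The fetal to adult balance was expressed as the share of Chrng in Chrng plus Chrne, both in CPM per kb. In control limbs the fetal share was 26.2% ± 18.6 (SD, n = 9), with a range of 9.18% to 63.4% and a median of 18%. It was 72.1%, 28.6% and 62.4% in atrophy animals 1, 2 and 3, 28.4%, 22% and 49.2% in recovery animals, and 49.8%, 71.4% and 76.6% in repeated atrophy animals. The fetal transcript thus formed the larger part in 2 of 3 atrophy and 2 of 3 repeated atrophy limbs, in no recovery limb and in 1 of 9 control limbs. Sham left limbs averaged 24.8% ± 19.2 and sham right limbs 18.2% ± 8.87 (SD, n = 3 each).

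The ratio itself, log2 of Chrng + 1 over Chrne + 1, was tested over limbs in 7 comparisons. It was higher by 2.39 after repeated atrophy than in control limbs (exact two-sided permutation p = 0.00909, adjusted p = 0.0636), a difference that missed the threshold after adjustment. With the 3 sham right limbs added to the control group it was 2.51 (exact permutation test, adjusted p = 0.0308), and without the control limb highest in Chrng it was 2.66 and passed (exact permutation test, adjusted p = 0.0424). It was higher by 1.68 after atrophy (exact permutation p = 0.0591, adjusted p = 0.207) and by 0.43 after recovery (exact permutation p = 0.527, adjusted p = 0.70). Repeated atrophy exceeded recovery by 1.97 (exact permutation p = 0.10, the smallest that 3 limbs against 3 can give). Within animals, the ratio was higher in the left limb in all 9 TTX animals, by 0.91 to 2.51 after atrophy, 0.15 to 2.43 after recovery and 0.95 to 2.45 after repeated atrophy. In sham animals the difference was 0.00, 1.5 and -0.45, so that sham animal 2 exceeded 4 of the 9 TTX animals. The exact sign permutation p was 0.25 in each of the 3 TTX groups, the smallest that 3 animals can give.

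**Figure D4:**
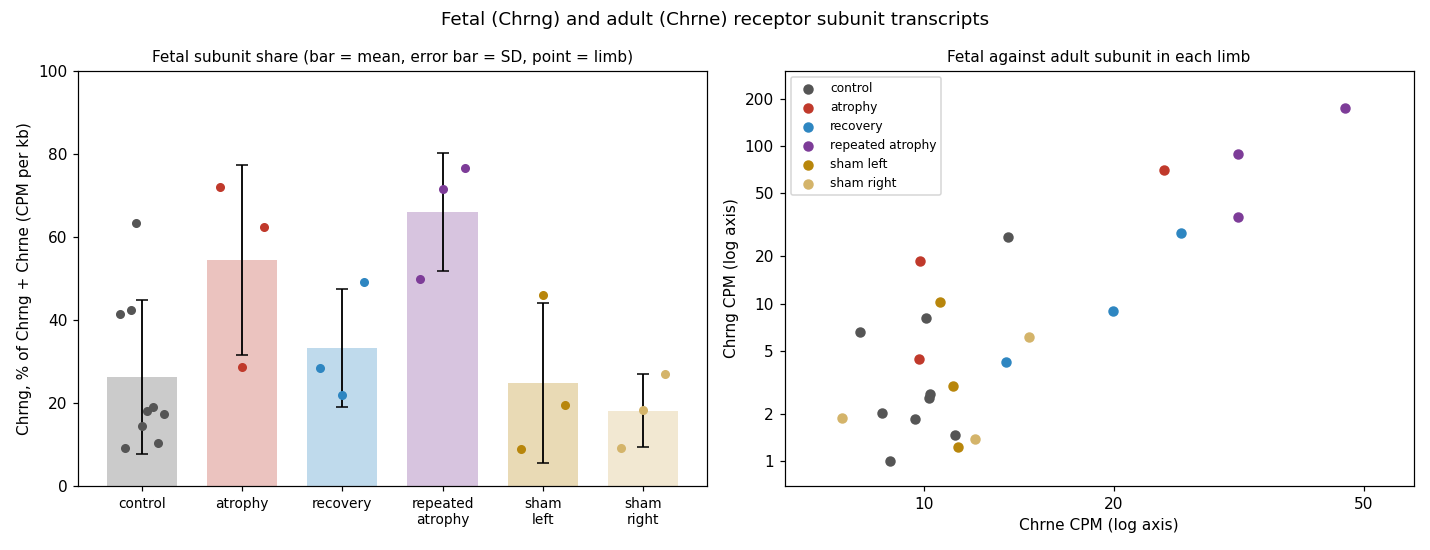
Left, fetal subunit share (Chrng as a percentage of Chrng plus Chrne in CPM per kb) with bars at the group mean, error bars for the SD and a point per limb. Right, Chrng against Chrne CPM per limb on log axes, in which the 3 repeated atrophy limbs have more Chrne (31.6 to 46.7 CPM) than any other limb and the recovery limbs (13.5 to 25.6 CPM) more than most control limbs.

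Chrnd and Chrng are neighbours in the genome. In the rn7 coordinates of the table, Chrnd lies at chr9:87862417-87870834 and Chrng at chr9:87878085-87884194 on the same strand, with 7250 bases between them, yet Chrnd was closer in pattern to Chrna1 on chromosome 3. Over the 24 limbs, log2 levels of Chrna1 had a Pearson correlation of 0.988 with Chrnd, the highest of all rows with a mean of at least 1 CPM, followed by Adap2 and Ncam1 (both 0.972). Chrng was most like Ncam1 (0.944), Chrna1 (0.938) and Chrnd (0.933). Chrne had weaker partners, with Faah and Faahl, whose rows were alike, at 0.896 and Cpeb1 at 0.895. Ache was most like Myom2 (0.973), a component of the M-band of the sarcomere, Lrrc38 (0.967) and Phkg1 (0.959), the catalytic subunit of muscle phosphorylase kinase. These coefficients describe limbs of all groups together and share the group differences given above.

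Of 14 regulators of synaptic transcription tested, 8 rose and 1 fell after atrophy, 0 rose and 1 fell after recovery, and 9 rose and 1 fell after repeated atrophy, with median log2 fold changes of 0.89, 0.06 and 0.99, compared with 0.22, 0.02 and 0.20 for all rows. For this and the lists below, the share of all rows rising was 20.3%, 4.40% and 28.1%, and that falling 2.33%, 3.33% and 6.24%, in the same order. Myog, which encodes myogenin, an E-box factor, stood at 424, 187 and 782 CPM in atrophy animals 1, 2 and 3, at 33.6, 21.2 and 124 CPM in recovery animals and at 637, 526 and 420 CPM in repeated atrophy animals, while control limbs ranged from 18.2 to 132 CPM (median 45.0). Unlike the receptor subunits, Myog exceeded the control range in atrophy animal 2 as well, and it also did so in both limbs of sham animal 3 (180 and 134 CPM). Its log2 fold change was 3.01 after atrophy (adjusted p = 0.0060) and 3.40 after repeated atrophy (adjusted p = 2.9e-04). Runx1, a transcription factor known to rise in denervated muscle, rose by 2.81 and 3.42. Hdac4, a deacetylase that links nerve activity to receptor genes, rose by 1.28 (adjusted p = 0.047) and 1.67 (adjusted p = 0.0076). Gabpa, whose product binds the N-box, rose by 0.88 and 0.90. With the animal as a block, no gene of this or any other pathway list passed after atrophy or recovery, and 8 of the 14 rose and 2 fell after repeated atrophy. The genes that fell were Etv4 after atrophy (-0.66), Hdac5 after recovery (-0.86) and Hdac9 after repeated atrophy (-0.94).

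**Figure D5:**
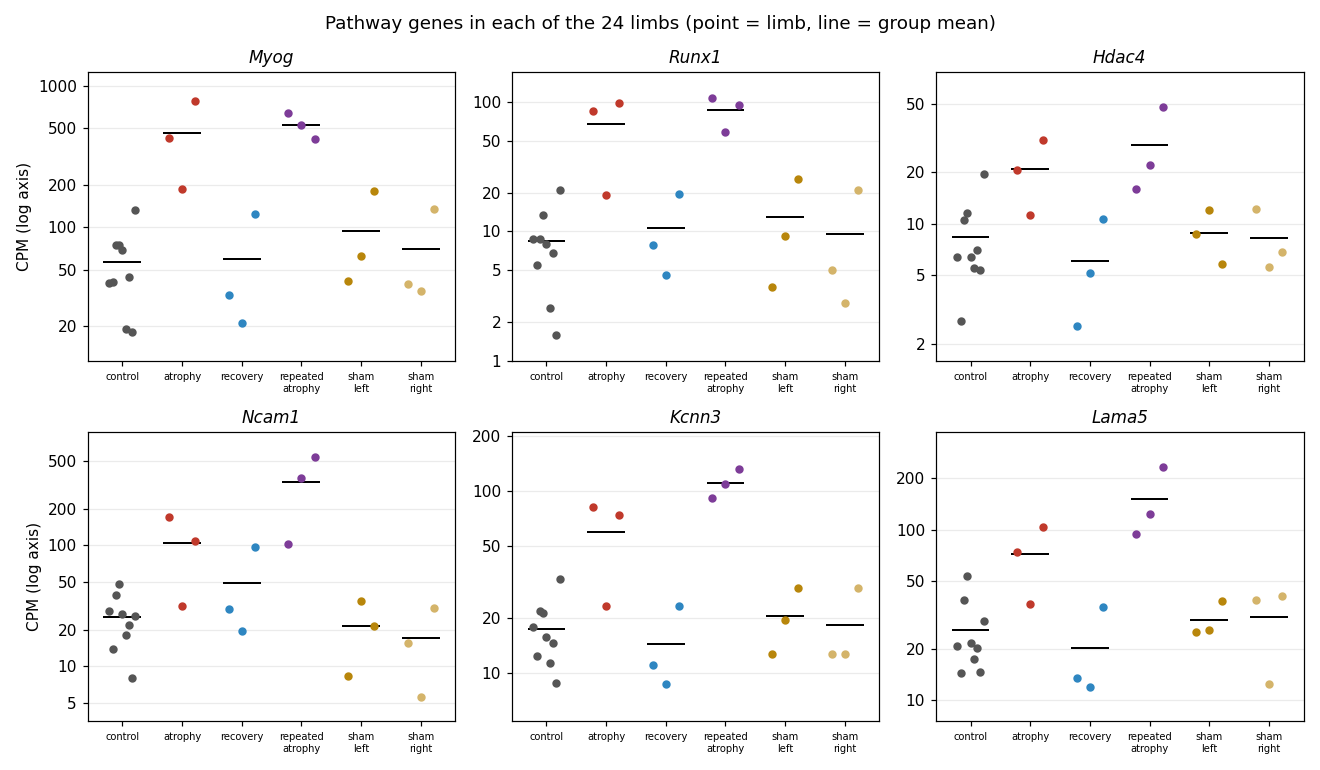
CPM of Myog, Runx1, Hdac4, Ncam1, Kcnn3 and Lama5 on log axes in each of the 24 limbs, by group, with a point per limb and a line at the group mean. The 3 repeated atrophy limbs lie above all control limbs for Myog, Runx1, Ncam1, Kcnn3 and Lama5, and the recovery limbs lie within the control range apart from 1 high limb for Ncam1 and low limbs of Hdac4, Kcnn3 and Lama5.

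Of 8 listed genes of the extrajunctional membrane and the denervation response, 7 had a row. Among these, Ncam1 and Kcnn3 rose after atrophy and again after repeated atrophy. Ncam1, an adhesion molecule of denervated fibers, rose by 1.83 and 3.50, and Kcnn3, a calcium-activated potassium channel, by 1.62 and 2.67. Cdh15, a cadherin of satellite cells, fell after recovery (-1.09) and repeated atrophy (-0.90), and Gap43, a growth protein of regenerating axons, rose after recovery (0.98, adjusted p = 0.033).

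Of 11 synaptic signals and basal lamina genes, 1 rose after atrophy (Lama5, a laminin chain, 1.45), 0 changed after recovery, and 2 rose (Lama5, 2.53, and Erbb2, a neuregulin receptor, 2.13) and 1 fell (Lamb2, the synaptic laminin chain, -0.74) after repeated atrophy. Agrn, which encodes agrin, ranged from 13.0 to 27.7 CPM across the atrophy, recovery, repeated atrophy and control limbs, and its difference after repeated atrophy was -0.07 ± 0.209. Colq, the collagen tail that anchors acetylcholinesterase, was lower by 0.54 after atrophy and 0.41 after repeated atrophy without passing (adjusted p = 0.12 and 0.21). Erbb3 and Utrn, which encodes the synaptic dystrophin relative utrophin, did not pass in any of these 3 comparisons, and Utrn differed by -0.21 and 0.21 after atrophy and repeated atrophy. Of 15 postsynaptic scaffold and MuSK pathway genes, 1 rose and 1 fell after atrophy, 1 rose and 1 fell after recovery, and 2 rose and 1 fell after repeated atrophy. Macf1, a cytoskeletal linker, rose by 0.98 and 1.29 and Pdzrn3, a ligase acting on MuSK, fell by 0.75 and 0.72 in both silenced groups, whereas Pak1 rose (1.74) and Ptpn11 fell (-0.79) after recovery.

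Of 10 receptor assembly and glycosylation genes, 5 rose after atrophy, among them the chaperones Canx (1.07) and Hspa5 (1.07). Without TTX, the left and right limbs of sham animal 3 were also above every control limb for Canx (350 and 336 CPM) and Hspa5 (608 and 556 CPM). After recovery 1 fell (Ric3, -1.30), and after repeated atrophy 3 rose, about the share of all rows, and 1 fell (Ric3), which was lost with the animal as a block. Gfpt1, the first enzyme of hexosamine synthesis, did not pass (0.08 and -0.19 after atrophy and repeated atrophy). Of 15 neuronal nicotinic subunits and cholinergic genes, 6 were in the table, each with a mean below 1 CPM. Bche, encoding butyrylcholinesterase, was the only one called, at 0.192 to 0.306 CPM after atrophy and 0 to 0.502 CPM after repeated atrophy, with no value above 0.0726 CPM in control limbs. Sham limbs, which had no TTX, held 0.0484 to 0.206 CPM on the right and 0 to 0.311 CPM on the left, the latter above every atrophy limb at its highest. These values correspond to a few reads, and neither call of Bche held with the animal as a block.

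The sham animals showed how these genes varied without TTX. No member was called between sham left and control limbs or between the 2 limbs of sham animals, and in both comparisons 0% of rows were called, with 1904 and 576 rows at an unadjusted p below 0.05. Against control, 118 of 13779 rows were called without the left limb of sham animal 2 and 8 of 13755 without that of animal 3. No member was among them. Chrna1 stood at 17.8, 59.3 and 71.7 CPM in the left limbs of sham animals 1, 2 and 3 and at 24, 18.3 and 87.7 CPM in their right limbs. The left limb of sham animal 2 was therefore above its right limb, by 1.64 on the log2 scale for Chrna1, 1.88 for Chrnd and 1.96 for Chrng, and the other 2 animals differed in the opposite direction. Ache stood at 4.61 CPM in the left and 11 CPM in the right limb of sham animal 3, both below every control limb and neither limb exposed to TTX. With 3 sham animals from 3 time points, the 95% intervals against control were wide, from -1.11 to 1.05 for Chrna1, -1.5 to 1.49 for Chrng and -2.47 to 0.32 for Ache.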

How the data were processed

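RNA-seq of 24 TA limbs was performed on directional mRNA libraries. Per the labels and methods, the authors removed contaminant reads with Bowtie2 2.2.5, aligned the rest to rn7 with STAR in Partek Flow and named DESeq2 for normalization. The deposited values are nonetheless CPM, with each sample summing to 1000000. The counting step, its annotation and its use of strand are not given in the sources used here. Low values fell on whole multiples of a step within 0.01 reads for 88.0% to 89.8% of them, from which 18.9 to 30.9 M reads per limb were inferred; reads were not treated as recovered, so no count test was run. A further 3 value columns that match no sample were not used, and columns of the authors' comparisons (fold changes and p-values) were left out.

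Of 14271 rows, 28 exact duplicates were dropped. limma 3.58.1 in R 4.3.3 was fitted, with its variance trend on intensity, to log2(CPM + 1) over all rows above 0 in at least 3 limbs, in 1 fit of the 18 limbs of TTX animals and in separate fits for sham animals. Rows with a fold of 1.2 or more and an adjusted p (Benjamini-Hochberg, all rows tested) of 0.05 or less were called. The balance of Chrng to Chrne was tested by exact permutation in Python 3.11.15 with numpy 2.4.6. The fit was tested on simulated data. The labels pair the limbs by animal, so each comparison within the TTX animals was also fitted with the animal as a block. The main fit of sham left against sham right had this block, and sham left against control was fitted without it. Over 10619 rows, deviations of the 2 limbs of an animal from their group means correlated at 0.62 to 0.84 in sham animals and -0.32 to 0.53 in TTX animals.

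The members and gene lists were chosen with earlier results of these data known. All 10 members were named, with set genes of the pathway lists, the 2 largest rises and falls past the threshold per list, and for Chrna1, Chrng, Chrne and Ache the 3 most correlated rows of at least 1 CPM. The fits were repeated with a pseudocount of 0.1 or 10, with rescaling by a trimmed mean log ratio (trimming 30% by ratio and 5% by level), a filter at a mean of 1 CPM and no filter, 12 right limbs as control, no variance trend, only the groups compared, the animal as a fixed or random block, and each limb left out. The p-values of the main fit of TTX animals and of the balance permutation over limbs measure the spread among limbs, with their pairing ignored. Those with the animal as a block, and the sign permutation, measure the spread among these animals. Inferred counts carry counting error only. A listed pathway gene is not reported here.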

Additional observations from a re-analysis of the deposited data

Results flagged for a closer look

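Chrng stood out because 1 control limb lay far from the others. The right limb of repeated atrophy animal 3 held 26.7 CPM and the next highest control limb 8.09 CPM, a gap of 0.724 of the group's range, which is above Dixon's 95% critical value for 9 limbs. Chance passes that value in about 1 in 20 groups, and 11 groups were examined. On the log2(CPM + 1) scale the gap was 0.425 of the range, which is below the critical value, so that this limb stood apart on the CPM scale only. The left limb of the same animal held the highest Chrng of all limbs (173 CPM), and its right limb held the highest control value of 6 of 10 members, which beside Chrng were Chrna1 (95.2 CPM), Chrnd (131 CPM), Chrne (13.6 CPM), Dok7 (25.9 CPM) and Ache (79.1 CPM).

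Rapsn stood out because the left limb exceeded the right in all atrophy and all repeated atrophy animals and was the lower one in all recovery animals. The left limb also exceeded the right in all 3 sham animals, by 0.17, 0.08 and 0.29 on the log2 scale, compared with 0.49, 0.13 and 0.01 in atrophy animals. The difference between these within-animal changes was -0.59 on the log2 scale for recovery against atrophy (adjusted p = 0.62 in limma, blocked by animal) and 1.08 for repeated atrophy against recovery (adjusted p = 0.10), so neither passed. In atrophy animal 3 and recovery animal 3 the limbs differed by no more than 0.04.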

How the results depend on the processing

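With the animal as a fixed replicate block, 0 members were called after atrophy, after recovery, for recovery against atrophy and for repeated atrophy against recovery, compared with 6, 2, 3 and 9 without it, and it changed no other member count. The number called for recovery was 1 with a pseudocount of 10, and that for recovery against atrophy was 1 when only these groups were fitted. With 12 right limbs as control the balance of Chrng to Chrne after repeated atrophy differed by 2.51 (exact permutation test, adjusted p = 0.0308), and within animals the balance of repeated atrophy against atrophy was -0.04 in the block. Differences near 0 changed sign without passing in any fit. These were Lrp4 after recovery (0.49 in the fixed and 0.03 in the random block), Ache after recovery (-0.57, -0.03 and, with a pseudocount of 10, -0.01), Dok7 for repeated atrophy against recovery (0.11 in the block), and, for sham left against control, Chrna1 (0.06 with 12 right limbs) and Chrnd, Chrne and Rapsn (-0.11, -0.07 and -0.05 after rescaling). The cause was not tested.

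Leaving out each limb in turn, between 0 and 7 members were called after atrophy, 0 and 2 after recovery, 1 and 7 for recovery against atrophy and 0 and 1 for repeated atrophy against atrophy. The balance ranged from -0.04 to 0.75 after recovery, 2.04 to 2.90 after repeated atrophy, -0.01 to 1.24 for repeated atrophy against atrophy and -0.80 to 0.41 for sham left against control. Against control, Chrne after atrophy ranged from -0.01 to 0.60, Lrp4 after recovery from -0.25 to 0.13, Ache after recovery from -0.21 to 0.13 and Dok7 after repeated atrophy from -0.47 to 0.12. Between treated groups, Chrng ranged from -1.70 to 0.16 for recovery against atrophy, Dok7 from -0.35 to 0.24 for repeated atrophy against recovery and Musk from -0.33 to 0.65 for repeated atrophy against atrophy. For sham left against control the ranges were -0.40 to 0.57 (Chrna1), -0.29 to 0.78 (Chrnd) and -0.09 to 0.48 (Musk), and against sham right they were -0.35 to 0.68 (Chrna1), -0.21 to 0.89 (Chrnd), -0.45 to 0.94 (Chrng), -0.16 to 0.48 (Musk) and -0.20 to 0.30 (Lrp4).

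Rescaling also changed the split of all calls from 469 higher and 2036 lower to 783 and 692 for recovery against atrophy, and from 2941 and 882 to 1475 and 1573 for repeated atrophy against recovery. A fit of only the groups compared is the same fit for sham left against control, a block could not be fitted there because the limbs came from different animals, and 12 right limbs do not enter comparisons between treated groups. Groups of 3 limbs limit the balance to an exact permutation p of 0.1 between treated groups, and Musk and Bche rest on few reads.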

Other observations

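Among the 9 control limbs, which received no TTX, levels of Chrna1 and Chrnd moved together. These limbs came from animals of different time points, and the permutations below did not keep to them. The right limbs of recovery animals were at the low end for Chrna1 (26.9, 32.9 and 15.7 CPM) and Chrnd (25.1, 29.7 and 14.4 CPM). Differences between time points are therefore part of these relations, and the relation within a time point was not tested. On the log2(CPM + 1) scale, Pearson's r was 0.95 (exact permutation p = 0.00037, adjusted p = 0.0033) and Spearman's rho 0.93 (exact permutation p = 0.00075, adjusted p = 0.0067) over 9 relations with Chrna1, and r was 0.87 without the 2 limbs farthest from the median of Chrna1. Rapsn (r = 0.77, adjusted p = 0.073), Chrng (0.72, adjusted p = 0.076) and Lrp4 (0.68, adjusted p = 0.099) missed the threshold in the same exact permutation tests, with r of 0.66, 0.54 and 0.42 without those limbs. Spearman's rho of these 3 genes was 0.72, 0.67 and 0.80 (adjusted p = 0.11, 0.13 and 0.062). Chrnb1 had an r of 0.31, and Chrne, Musk, Dok7 and Ache lay between -0.06 and 0.07. These relations were chosen after the values were seen.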
